A study of Mus musculus with 8 samples.

Results

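The genes described here are 42 genes of the autophagy and mitophagy machinery, taken by symbol from the 54091 gene rows of the deposited expression table. All 42 were found under the listed symbol, among them Park2, the older symbol of the Parkin gene. The list was drawn up by function and covers 7 roles: the initiation complex, membrane delivery and growth, the class III PI3-kinase complex, the conjugation enzymes, the Atg8 family, cargo receptors and mitophagy. The RNA-seq libraries came from white quadriceps muscle of 8 male mice, 11 to 14 weeks old, after a 14 h overnight fast. Of these, 4 mice were floxed controls with both Acot2 alleles floxed (Loxp/Loxp, replicates 1 to 4), and 4 were muscle knockouts labelled CKM Cre (Acot2 ko in muscle), replicates 5 to 8. Cre under the muscle creatine kinase promoter acts in muscle fibres, so other cells of the tissue keep the gene. Mice with Cre and no floxed allele were not analysed here; Cre expression and Acot2 loss therefore cannot be told apart. Every group was fasted, and no fed mice were analysed, so levels are those of fasted muscle only.

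Autophagy encloses cytoplasm in a double membrane, the autophagosome, and delivers it to the lysosome. The ULK1 kinase complex starts the process, a lipid kinase built around Vps34 (Pik3c3) and Beclin 1 marks the growing membrane, and a pair of linked conjugation reactions attaches Atg8 proteins such as LC3 to its lipid. Cargo receptors bridge ubiquitin-tagged material and LC3, while mitophagy receptors on the outer mitochondrial membrane, or the kinase PINK1 with the ubiquitin ligase Parkin, mark mitochondria for removal. In skeletal muscle the pathway is induced by fasting, in part through FOXO transcription factors, and transcription factors of the TFEB family act on many of its genes through E-box elements.

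Upstream sequence was searched for both kinds of element, and the stretches below are those of Atg16l2, Atg5, Atg7, Atg3 and Bnip3. RefSeq promoter windows of build GRCm38.p6, 250 bases before to 50 after a start site, were found for 34 of the 42 genes, in 38 windows. The E-box core CACGTG, which reads the same on both strands, lay in 5 of the 38 windows (13.2%) and in 7.15% of all 32851 windows of that length. The 5 windows belonged to Atg3, Atg5, Atg7, Atg14 and Bnip3, and no stretch is shown for Atg14. The forkhead core GTAAACA, searched on both strands, lay in 0 of the 38 and in 3.65% of all windows, and the patterns can share end letters only, with no member window holding both. Each stretch below runs 5′ to 3′ on the strand of the gene, holds no base of an annotated exon, and has the CACGTG core in capitals. The matches are to letters only. Atg16l2, the one member with an unadjusted p under 0.05, is shown for comparison and holds neither core in its stretch, which ends 163 bases before its start site (chr7:101302252-101302338, minus strand). The other positions are chr10:44268089-44268338, plus strand, for Atg5; chr6:114670846-114671095, plus strand, for Atg7; chr16:45158707-45158784, plus strand, for Atg3; and chr7:138909520-138909756, minus strand, for Bnip3. The Atg7 stretch lies within the annotated gene (114643097 to 114860614 on chromosome 6) and precedes an internal start, so it is intronic sequence and not the promoter of the full gene.
Atg16l2: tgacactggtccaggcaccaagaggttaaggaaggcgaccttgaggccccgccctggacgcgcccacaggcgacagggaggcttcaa
Atg5: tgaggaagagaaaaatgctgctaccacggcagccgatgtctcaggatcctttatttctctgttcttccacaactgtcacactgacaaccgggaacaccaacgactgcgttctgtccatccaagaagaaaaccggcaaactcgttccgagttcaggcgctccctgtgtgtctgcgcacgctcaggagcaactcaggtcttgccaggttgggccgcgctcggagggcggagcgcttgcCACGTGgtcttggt
Atg7: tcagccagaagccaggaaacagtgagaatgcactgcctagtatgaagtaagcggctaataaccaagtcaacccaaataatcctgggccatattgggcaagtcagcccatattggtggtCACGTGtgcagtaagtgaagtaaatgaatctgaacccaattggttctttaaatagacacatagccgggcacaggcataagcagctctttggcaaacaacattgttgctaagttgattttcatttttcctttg
Atg3: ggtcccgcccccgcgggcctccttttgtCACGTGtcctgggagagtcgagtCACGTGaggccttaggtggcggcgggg
Bnip3: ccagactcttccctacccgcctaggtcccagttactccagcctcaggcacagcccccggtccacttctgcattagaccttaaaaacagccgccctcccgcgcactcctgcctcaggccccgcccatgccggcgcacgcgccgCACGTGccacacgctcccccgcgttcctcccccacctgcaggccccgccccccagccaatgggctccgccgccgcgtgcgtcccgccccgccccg
The core began 14 bases before the RefSeq start site in Atg5, 132 before it in Atg7, 94 and 71 before it in Atg3, and 108 before it in Bnip3. The 4 genes with a core in these stretches differed between genotypes by -0.010 (Atg5), -0.057 (Atg7), -0.058 (Atg3) and -0.0070 (Bnip3) on the log2 scale, and Atg14 by -0.094, with no adjusted p under 0.837 among the 5 (limma).

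Values are the authors' normalized counts, which are read counts divided by a size factor per library, or log2 of that count plus 1. Each difference is the knockout mean minus that of the floxed controls in log2 units; its standard error (SE) comes from a limma fit over all 13141 tested genes, over which p-values were adjusted by Benjamini-Hochberg. Reads on genes ranged from 28659633 to 40977866 per library, and the least covered member, Atg4c, had a mean of 117 reads per library. The labels give no batch, and nothing but separate mouse numbers shows that the libraries come from separate animals. The tissue label fitted 2 of its markers: the fast myosin gene Myh4 had at least 1397870 normalized counts in every library and the slow myosin gene Myh7 at most 303. Myh2, an oxidative fibre myosin gene, varied widely between mice, from 4005 in knockout 6 to 59055 in knockout 7. Acot2 itself was at 19.4% of the floxed control mean in the knockouts (-2.30, SE 0.287), with a two-sided exact permutation test giving 0.0286, the least possible for 4 against 4, and an adjusted p of 0.087 in limma.

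No member of the machinery changed between genotypes at an adjusted p of 0.05, and for most of them a change of 1.5-fold or more lay outside the 95% interval. With limma, 0 of the 42 members passed, as did 0 of 13141 tested genes, a background of 0%. At an unadjusted p under 0.05 there was 1 member, Atg16l2, or 2.38% of the 42 and lower in the knockout, against 6.16% of all tested genes (3.7% lower). Voom on recovered reads gave the same counts, 0 members adjusted and 1 unadjusted (all genes 5.75%, lower 3.45%). Without a filter on low values Ulk1 and Atg2b joined it, for 3 members, all lower (all genes 5.32%, lower 2.85%). The 95% interval lay within 1.5-fold in both directions for 38 of the 42 genes, against 59% of all tested genes. For the other pathway genes described below the share was 93.0%, so narrow intervals are not particular to the members. The 4 others were Ulk1 and Atg16l2, whose intervals reached further down, and Atg4c and Atg10, whose intervals reached further up. Differences ranged from -0.67 (Atg16l2) to 0.24 (Atg4a), with a median of -0.047 over the members and 0.0031 over all tested genes. The difference was below 0 for 32 of the 42, against 49.4% of all tested genes. Scaling every library to the same total moved the median of all tested genes to 0.044 and that of the members to -0.0057. In that fit 22 of the 42 were below 0, against 41.1% of all tested genes. The groups did not overlap for 2 members, Atg16l2 and Sqstm1, both lower in the knockout, which is 4.76% of the 42 against 2.75% of all tested genes (1.62% lower). These shares are on the authors' scaling, and with libraries scaled to the same total the Sqstm1 groups overlapped. Summed over the members, the controls had 154074 ± 8623 and the knockouts 144571 ± 5190 normalized counts (SD, n = 4), with ranges that overlapped (144591 to 165482 and 139779 to 149707). The median residual SD within groups was 0.141 over the members and 0.224 over all tested genes. These are not sets of like level: tested genes go down to a mean of 10 normalized counts, while every member averaged at least 117 reads.

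**Figure D1:**
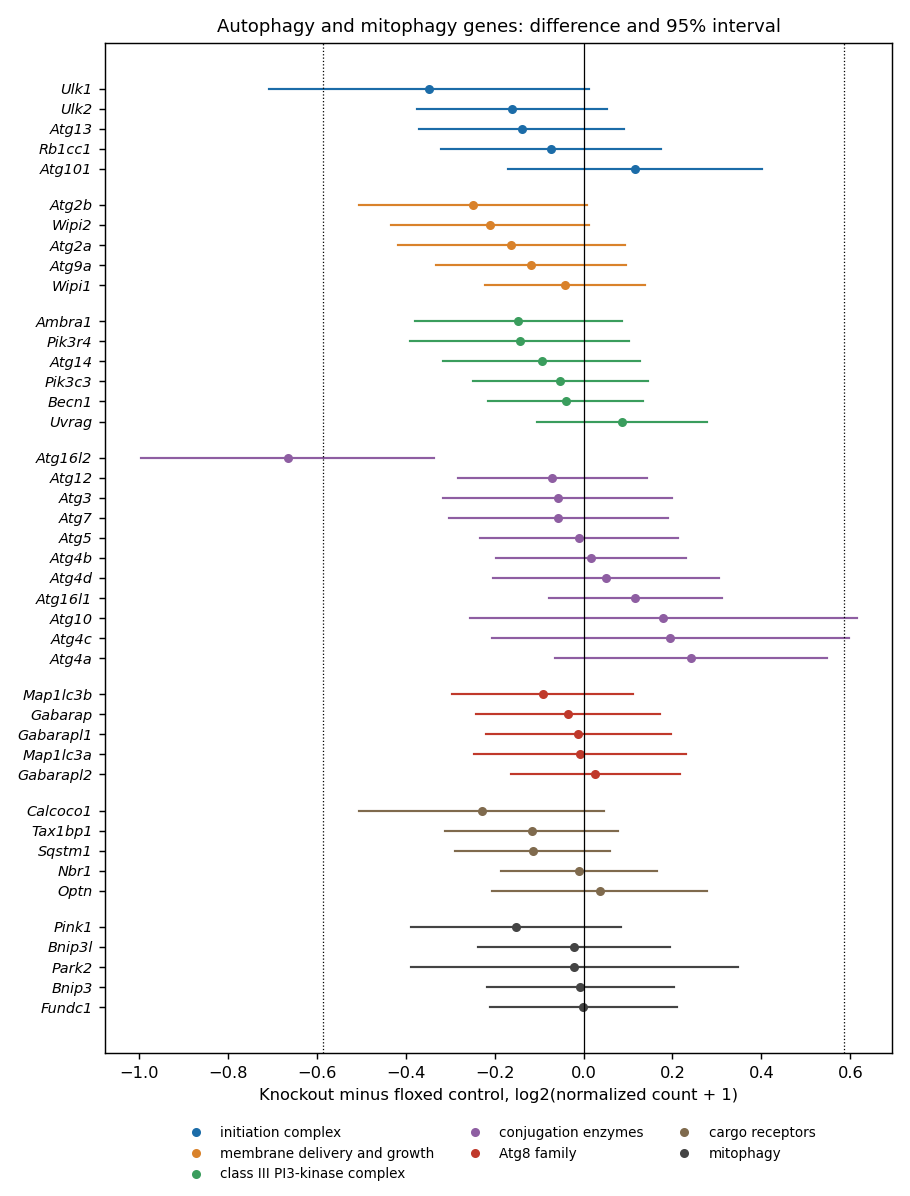
Knockout minus floxed control for each of the 42 genes on the log2(normalized count + 1) scale (horizontal axis), with points for the limma estimate, bars for its 95% interval, colours for the roles and dotted lines at 1.5-fold. The interval of Atg16l2 is the only one that does not cross 0, at -0.99 to -0.34.

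Members of the initiation complex had mostly lower values in the knockout, with none past the threshold. Of the 5, 4 differed by less than 0 and the median difference was -0.14. Ulk1 encodes the kinase that starts autophagosome formation under nutrient shortage (chromosome 5, 110784488 to 110810097, minus strand, GRCm38). It had 9711, 7871, 6980.4 and 9458 normalized counts in the floxed controls and 8920.1, 6653, 5057 and 6421 in the knockouts, each in order of replicate number, as in all such lists below. Knockouts 6, 7 and 8 lay below every floxed control, and knockout 5 lay among them. The difference was -0.35 (SE 0.163, interval -0.71 to 0.012), with an unadjusted p of 0.0570 and an adjusted p of 0.746 in limma. Ulk2, its close relative, had 5907, 5445, 5384 and 5707 normalized counts in the controls and 5852, 5147, 4268 and 4919 in the knockouts. Again the same 3 knockouts were below the lowest control, while knockout 5 was not, and the difference was -0.16 (SE 0.0970). Counted singly, knockouts 6, 7 and 8 lay below every control for 17, 15 and 13 of the 42 members. The shares of all tested genes were 27.4%, 24.8% and 25.0%. They lay above every control for 6, 6 and 7 members, against 28.4%, 24.3% and 27.3% of all tested genes. The share of all tested genes with these 3 knockouts below at once was not counted. Rb1cc1, which encodes the scaffold FIP200 and had the highest count of the complex, had normalized counts of 11185, 8513, 8179 and 9779.5 in controls and 9223, 9145, 7726 and 9514 in knockouts, overlapping groups and a difference of -0.074 (SE 0.112). Atg13, the regulatory subunit of the kinase, differed by -0.14 and Atg101, the partner that stabilizes Atg13, by 0.12. The largest of these 5 differences, that of Ulk1, left the knockout mean at 79.5% of the control mean.

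Genes for membrane delivery and growth were lower in the knockout means for all 5 members, again with no call. The median difference was -0.16 and stayed below 0 in each alternative scaling. Atg2b, a lipid transfer protein that feeds the growing membrane (chromosome 12, 105616136 to 105685211, minus strand), had 2336, 2106, 2444 and 2782 normalized counts in floxed controls and 2431, 1725, 1962 and 2040.5 in knockouts. Knockouts 6, 7 and 8 were below the lowest control and knockout 5 was within the control range, for a difference of -0.25 (SE 0.117, limma adjusted p 0.746). Wipi2, which recruits the conjugation machinery to the membrane, showed the same layout, with 2099, 1654, 1808 and 2008 in controls, 1878, 1525, 1541 and 1598 in knockouts and a difference of -0.21 (SE 0.101). Atg9a, the transmembrane lipid scramblase of the seed vesicles, had normalized counts of 2537, 2325, 2225 and 2439.6 in controls and 2634, 2058, 2021 and 2111 in knockouts. Its knockout 5 was the highest of all 8 mice and its other 3 knockouts the lowest; the difference was -0.12 (SE 0.0969). Atg2a, the paralogue of Atg2b, differed by -0.16, with knockout 5 highest and knockouts 6 to 8 lowest of the 8, and Wipi1, a lipid-binding relative of Wipi2, by -0.041. An annotated gene on the same strand shares 31.8% of the exon bases of Atg9a, and how reads on shared bases were counted is not given. Shared exon bases and transcript lengths in this report are from a GENCODE annotation, which may differ from the one the authors counted on.

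For the class III PI3-kinase complex, which makes the lipid signal on the autophagosome membrane, groups overlapped in all 6 members. Differences ran from -0.15 to 0.087, with a median of -0.073. Ambra1, a scaffold that couples Beclin 1 to the initiation complex, had 876, 887, 785 and 896 normalized counts in controls and 917, 669, 754 and 787 in knockouts, with the highest and the lowest value both among the knockouts (difference -0.15, SE 0.105). Pik3r4, the regulatory subunit Vps15, had 629, 531, 577 and 595 in controls and 569, 434, 578 and 539.8 in knockouts. Only knockout 6 lay below the controls, and the difference was -0.14 (SE 0.112). Becn1, the core subunit Beclin 1 and the member of this group with the most reads, had normalized counts of 1420.5, 1497, 1343 and 1289.6 in controls and 1266, 1338, 1396 and 1393 in knockouts and differed by -0.040 (interval -0.21 to 0.13). An opposite-strand gene, Cntd1, shares 43.9% of the exon bases of Becn1; the strand setting of the counting is not given, so reads of the 2 cannot be told apart. Pik3c3, the lipid kinase Vps34 itself, differed by -0.053, Atg14, which directs the complex to autophagy, by -0.094, and Uvrag, its counterpart in the endosomal form, by 0.087; an opposite-strand gene shares 17.6% of the exon bases of Uvrag.

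Among the conjugation enzymes, Atg16l2 was the only member of 11 whose groups did not overlap (9.09%, against 2.75% of all tested genes). The median difference of the 11 was 0.017. Atg16l2 is a paralogue of Atg16l1, the protein that carries the Atg12-Atg5 conjugate to the membrane; its own part in autophagy is less settled (chromosome 7, 101263034 to 101302251, minus strand). Floxed controls had 180.1, 148, 177 and 189 normalized counts and knockouts 119, 95.9, 125 and 98.0. All 4 knockouts lay below every floxed control, and the means were 174 ± 17.9 (SD, n = 4) and 109 ± 14.6 (SD, n = 4), so the knockouts were at 63.0% of control. The difference was -0.67 (SE 0.150), with an unadjusted p of 0.00101 and a limma adjusted p of 0.746, which misses the threshold. An earlier account of these data had already named the gene among the smallest p-values, so its place here is no independent support. Over the 18 other settings its difference kept its sign, from -0.74 to -0.61, and the adjusted p ranged from 0.104 without knockout 5 to 0.992 without floxed control 4. Its level was 21.9 normalized counts per kb of its longest annotated transcript (place 42 of 42) and 233 per kb of its median one (place 36).

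Its paralogue Atg16l1 had 629, 561, 617 and 646 normalized counts in controls and 610.2, 686, 689.9 and 674 in knockouts, with knockouts 6, 7 and 8 above every control (difference 0.12, SE 0.0879, limma adjusted p 0.785). Thus the 2 paralogues had differences of opposite sign, though only that of Atg16l2 had an interval clear of 0, and the difference between them was not tested. Atg4a, a protease that trims Atg8 proteins, had normalized counts of 309, 359, 382 and 277 in controls and 325, 420.5, 374 and 449 in knockouts. Knockouts 6 and 8 exceeded every control, with a difference of 0.24 (SE 0.139, limma adjusted p 0.748). The other proteases, Atg4b, Atg4c and Atg4d, differed by 0.017, 0.20 and 0.052; Atg4d, the one with the most reads, had 845, 902, 769 and 763 in controls and 689, 879, 868 and 982 in knockouts. The lowest and the highest Atg4d value were both in knockouts (5 and 8), and the opposite-strand gene Kri1 shares 19.3% of its exon bases, with the same limit as for Becn1. Atg7, the E1-like enzyme that both reactions need, differed by -0.057 (interval -0.30 to 0.19), and the E2-like enzymes Atg3 and Atg10 by -0.058 and 0.18. The conjugated proteins Atg5 and Atg12 differed by -0.010 and -0.070. Only the intervals of Atg4c and Atg10 among these reached past 1.5-fold, upward in both.

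**Figure D2:**
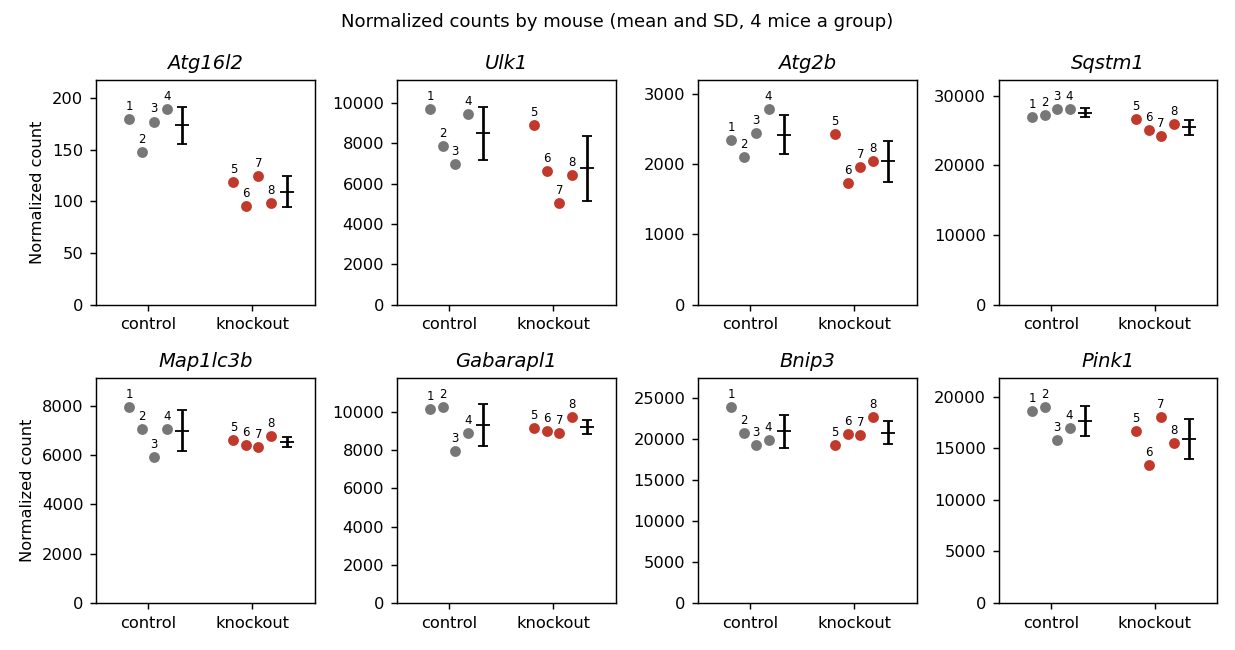
Normalized counts (vertical axes, from 0) of 8 genes in each mouse, with replicate numbers beside the points and the mean and SD of the 4 mice of a group as bars. Knockouts are below all controls for Atg16l2 and Sqstm1, knockout 5 sits among the controls for Ulk1 and Atg2b, and the groups overlap for Map1lc3b, Gabarapl1, Bnip3 and Pink1.

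Genes of the Atg8 family, the proteins that coat the autophagosome and bind receptors, had nearly equal levels in both genotypes. All 5 intervals lay within 1.5-fold, and the median difference was -0.012, or 0.030 with libraries scaled to the same total. Map1lc3b (LC3B, the usual autophagosome marker; chromosome 8, 121590361 to 121598760, plus strand) had 7941, 7049, 5934 and 7082 normalized counts in controls and 6636, 6422, 6329 and 6763 in knockouts. The 4 knockouts lay inside the control range, for a difference of -0.092 (SE 0.0922, interval -0.29 to 0.11, limma adjusted p 0.835). Gabarapl1, a FOXO target in wasting muscle (chromosome 6, 129533160 to 129542346, plus strand), had 10174, 10238, 7949 and 8911 in controls and 9172, 9013, 8877 and 9734 in knockouts, again with every knockout inside the control range and an interval of -0.22 to 0.20. Map1lc3a had 4509, 3785, 3945 and 3472 in controls and 3319.8, 3827, 4032 and 4468 in knockouts, with knockout 5 lowest and floxed control 1 highest (difference -0.0076, SE 0.108). Gabarap, which acts late in autophagosome closure, had 2032, 2180.0, 1842 and 1794 in controls and 1726, 1838, 2139 and 1957 in knockouts and differed by -0.035 (SE 0.0943). Gabarapl2 (GATE-16) had 1149, 1149.6, 1166 and 1087 in controls and 1021, 1279, 1167 and 1180.0 in knockouts. Both its lowest value, in knockout 5, and its highest, in knockout 6, came from knockouts, and the difference was 0.026 (SE 0.0862). A gene on the opposite strand shares 28.3% of the exon bases of Gabarapl1, with the same limit as for Becn1.

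No cargo receptor had an adjusted p under 0.05. Of the 5, 4 had a difference below 0, against 49.4% of all tested genes, and the median was -0.11. With libraries scaled to the same total the count was 3, against 41.1% of all tested genes, and the median -0.073. Sqstm1 (p62, which binds ubiquitin and LC3 and is itself degraded by autophagy; chromosome 11, 50199366 to 50210827, minus strand) had 26888, 27216, 28082 and 28097 normalized counts in floxed controls and 26687, 25097, 24226 and 25892 in knockouts. Every knockout lay below every control, but by a small margin: the knockout mean was 92.4% of control, the difference -0.11 (SE 0.0796, interval -0.29 to 0.061) and the limma adjusted p 0.765. With libraries scaled to the same total its difference kept its sign at -0.073, but the groups then overlapped. The opposite-strand gene Mrnip shares 17.3% of the exon bases of Sqstm1. Calcoco1, a receptor for the endoplasmic reticulum and Golgi, had 3419, 2461, 2472 and 3022 in controls and 2820.4, 2101, 2402 and 2341 in knockouts. Knockouts 6, 7 and 8 were below the lowest control, with a difference of -0.23 (SE 0.125, limma adjusted p 0.748). Tax1bp1 and Nbr1, which bind ubiquitin-tagged cargo, differed by -0.12 and -0.0098 and Optn, a receptor in PINK1-Parkin mitophagy, by 0.036; their groups overlapped, and every interval of the 5 receptors lay within 1.5-fold.

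Mitophagy genes showed no difference beyond the spread between mice, and all 5 intervals lay within 1.5-fold. Bnip3, a receptor on the outer mitochondrial membrane (chromosome 7, 138890836 to 138909519, minus strand), had 23811, 20641, 19228 and 19876 normalized counts in controls and 19265, 20598, 20504 and 22641 in knockouts. All 4 knockouts lay inside the control range, and the difference was -0.0070 (SE 0.0951, interval -0.22 to 0.20). Bnip3l (NIX), its homologue, had 2713, 2399, 2146 and 2226 in controls and 2358, 2493, 2451 and 2037 in knockouts and differed by -0.021 (SE 0.0978). Fundc1, a hypoxia-related receptor, had 569, 561, 509 and 536 in controls and 513, 498, 562 and 606 in knockouts, with a difference of -0.00031 (SE 0.0958). Pink1, the kinase that accumulates on damaged mitochondria (chromosome 4, 138313409 to 138326307, minus strand), had normalized counts of 18636, 18954, 15816 and 17003 in controls and 16666, 13398, 18053 and 15479.9 in knockouts. Knockouts 6 and 8 were below the lowest control while knockout 7 was not, so the difference of -0.15 (SE 0.107, limma adjusted p 0.771) was within the spread. Park2, the Parkin ligase gene, had only 206, 195, 172 and 271 in controls and 258, 193, 182 and 195 in knockouts and differed by -0.021 (SE 0.167). Its highest values came from floxed control 4 and knockout 5. The median difference of the 5 was -0.021, and with libraries scaled to the same total it was 0.021, so no direction can be given to this group; an opposite-strand gene shares 22.3% of the exon bases of Bnip3.

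Levels between genes can be compared only per length, and on that scale the machinery was led by a few transcripts. Over all 8 mice, Bnip3 had 11857 normalized counts per kb of its longest annotated transcript, Sqstm1 9923, Pink1 7053, Gabarapl1 5087 and Map1lc3a 3525. Map1lc3b followed at 1636 and Ulk1 at 1464. At the other end were Atg7 at 62.4, Park2 at 43.9, Atg4c at 36.4 and Atg16l2 at 21.9. Of the 11 conjugation enzymes the highest was Atg3, at 198 and place 26 of the 42. Pink1 was high and its partner Park2 low, at places 3 and 40. With the median annotated transcript as the length, Bnip3, Sqstm1 and Gabarapl1 took the first 3 places, Ulk1 the fourth and Pink1 the fifth. On that length Atg3 fell to place 38, Atg4b stood at place 20 and Atg4d at 22, Atg16l2 moved to 233 per kb and place 36, and Atg4c was lowest at 41.5.

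**Figure D3:**
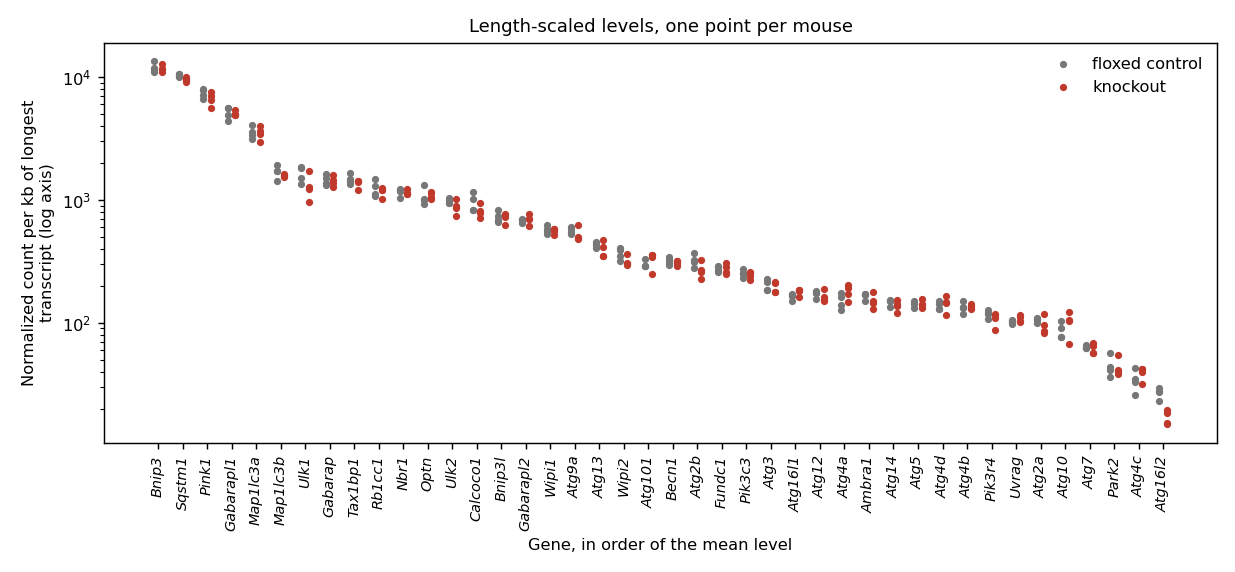
Normalized counts per kb of the longest annotated transcript (vertical log axis) for the 42 genes in order of their mean, with 1 point per mouse in grey for floxed controls and red for knockouts. Levels fall from 11857 per kb for Bnip3 to 21.9 for Atg16l2, and the points of the 2 groups overlap except for Sqstm1 and Atg16l2.

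Knockout 5 had the highest median of the knockouts in the initiation and membrane genes. Its median deviation from the 8-library mean was 0.14 over the 5 initiation genes and 0.14 over the 5 membrane genes, within the range of the floxed controls (-0.022 to 0.16 and -0.067 to 0.15). Knockouts 6, 7 and 8 had -0.043, -0.24 and 0.014 over the initiation genes and -0.20, -0.17 and -0.11 over the membrane genes. Knockout 8 thus also lay within the control range for the initiation genes, and only for the membrane genes were all 3 below it. For the Atg8 family and the conjugation enzymes knockout 5 instead had the lowest median of the 8 libraries, at -0.16 and -0.14. Over all tested genes its median deviation was -0.0022. Knockout 6 was the lowest of the 8 mice for 12 of the 42 members (17.6% of all tested genes), knockout 5 for 10 (12.2%) and floxed control 1 for 1 (11.1%). Floxed control 1 was the highest for 14 of the 42, against 11.6% of all tested genes.

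**Figure D4:**
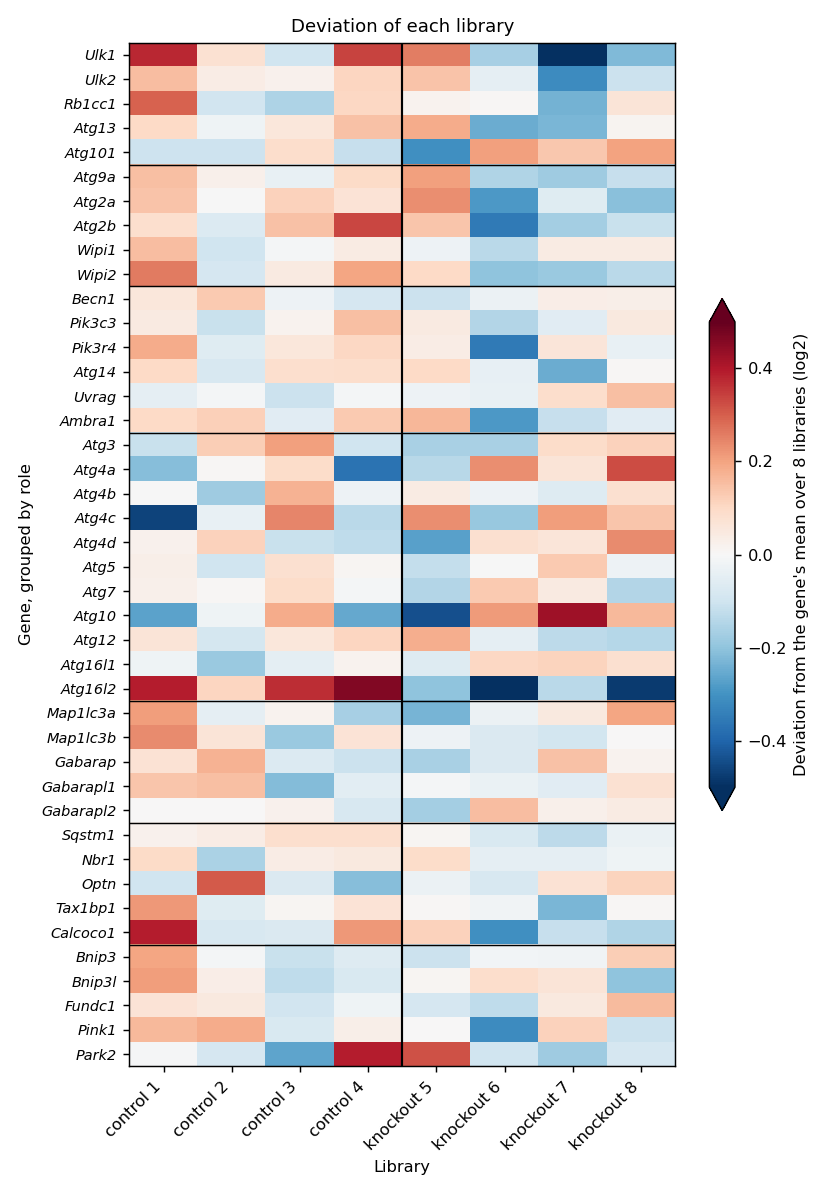
Deviation of each library from the mean of the gene over 8 libraries on the log2 scale (colour, clipped at 0.5), for 42 genes grouped by role and separated by lines, with floxed controls left and knockouts right of the vertical line. Knockout 5 is red for Ulk1, Ulk2, Atg13, Atg9a, Atg2a and Atg2b, where knockouts 6 and 7 are blue.

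Leaving out knockout 5 raised the number of members with an unadjusted p under 0.05 from 1 to 12, or 28.6% of the 42, against a rise from 6.16% to 16.8% of all tested genes. Of the 12, 10 were lower (against 8.65% of all tested genes) and 2 higher, and no member had an adjusted p under 0.104 (limma). The lower ones were Ulk1, Ulk2, Atg13, Atg9a, Atg2a, Atg2b, Wipi2, Ambra1, Calcoco1 and Atg16l2, and the higher ones Atg101 and Atg4a. Ulk1 then differed by -0.49 (SE 0.137, adjusted p 0.127 in limma), Atg2b by -0.34 and Wipi2 by -0.28. The Atg8 family and mitophagy genes gave 0 of 10 in the same fit. Without floxed control 4 as well, the count was 7 members (16.7%), all lower, against 11.5% of all tested genes (6.26% lower). Leaving out floxed control 2 gave 3 members, all lower (Atg2b, Wipi2 and Atg16l2, with 6.54% of all tested genes, 3.72% lower). Leaving out floxed control 3 gave 2, both lower (Ulk1 and Atg16l2, with 6.23% of all tested genes, 3.53% lower). Each of the other 5 libraries left the count at 1. The share of all tested genes was then 3.94% and 2.81% without floxed controls 1 and 4, and 3.25%, 5.05% and 3.52% without knockouts 6, 7 and 8. The labels give no ground for leaving knockout 5 out. Its Acot2 count was low like that of the other knockouts (413 against 312, 600.5 and 543 in knockouts 6 to 8).

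**Figure D5:**
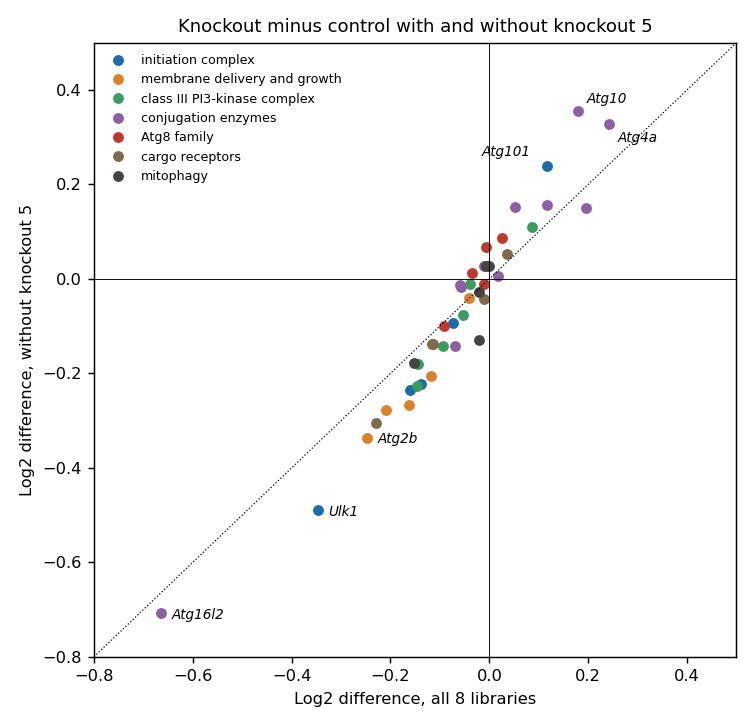
Log2 difference of each of the 42 genes from all 8 libraries (horizontal axis) and without knockout 5 (vertical axis), coloured by role, with the dotted line marking equal values. Ulk1 moves from -0.35 to -0.49 and Atg2b from -0.25 to -0.34, below the line, while Atg16l2 stays near it; both fits share 7 libraries.

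Other genes of the pathway, from lists on its regulators, further autophagosome genes, fusion with lysosomes, and further receptors, gave no call either. Of 72 genes, 71 were tested and 0 passed an adjusted p of 0.05; at an unadjusted p under 0.05 there were 4 (5.63%), against 6.16% of all tested genes, and the median difference was -0.035. Among 23 regulators, 18 had a difference below 0 (median -0.057), against 49.4% of all tested genes. With libraries scaled to the same total the count was 15, against 41.1% of all tested genes. The 2 regulators past the unadjusted threshold were lower. Tsc1, a brake on mTORC1, had 3662, 3837, 3545 and 3943 normalized counts in controls and 3744, 2762, 2918 and 3044 in knockouts (-0.27), with knockout 5 again among the controls. Tfe3, a relative of TFEB, had 282, 222, 296 and 284 in controls and 258, 184, 225 and 198 in knockouts (-0.33). Knockouts 6 and 8 of Tfe3 were below every control. Wdfy3, which links aggregates to the autophagosome, had 2683, 2677, 2553 and 2839 in controls and 2699, 2311, 2172 and 2057 in knockouts (-0.23). Nrbf2, a subunit of the PI3-kinase complex with few reads, was the only one of the 4 with a higher value: controls had 74.0, 64.4, 74.0 and 66.7 and knockouts 91.0, 83.9, 102 and 94.4 normalized counts (0.41), and every knockout lay above every control. The adjusted p was 0.746 for each of these 4 in limma. Upstream factors differed by -0.13 (Tfeb), -0.030 (Foxo1) and -0.19 (Foxo3), and the FOXO-driven ubiquitin ligase genes Trim63 and Fbxo32 by -0.077 and -0.18, none past the unadjusted threshold. Fbxo32 had 38287, 39080.5, 39797 and 37951 in controls and 34849.7, 31792, 33137 and 37634 in knockouts, with every knockout below every control. Nrbf2 and Fbxo32 were the 2 of 71 whose groups did not overlap (2.82%, against 2.75% of all tested genes), 1 in each direction. With libraries scaled to the same total the Fbxo32 groups overlapped. Of the 9 members known as FOXO3 targets in wasting muscle (Map1lc3b, Gabarapl1, Atg12, Atg4b, Becn1, Ulk2, Pik3c3, Bnip3 and Bnip3l), 8 had a difference below 0, against 49.4% of all tested genes, with a median of -0.040. With libraries scaled to the same total the count was 4 of 9, against 41.1% of all tested genes, and none of the 9 had an unadjusted p under 0.05. None of the 16 fusion genes passed either, with a median of -0.015, or 0.026 with libraries scaled to the same total.

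Markers of macrophages, endothelium and vessel wall had higher means in the knockouts. In bulk tissue, more cells of a type and more RNA per cell, or fewer and less, cannot be told apart. All 6 macrophage markers had higher knockout means, with summed counts of 868 to 1566 in controls and 1536 to 2595 in knockouts, and none was at 0 in any library. Of the 6, 4 had an unadjusted p under 0.05, all higher, against 6.16% of all tested genes (2.47% higher), and 0 an adjusted one (limma). Endothelial markers were higher in the knockout mean for 5 of 6, with sums of 6645 to 7618 in controls and 7741 to 9230.3 in knockouts, which did not overlap. Here too 4 of 6 had an unadjusted p under 0.05, all higher, and 0 an adjusted one (limma). All 4 mural markers had higher means, with sums of 11346 to 14494 and 14581 to 16345, which did not overlap either. Of the oxidative or slow fibre markers, 5 of 6 had a log2 difference above 0, Myh2 differed by -0.0090, and the sums overlapped widely (4469 to 18786 against 4138 to 59801). The top sum, in knockout 7, was nearly all Myh2 (59055), while Myh7 was highest in knockout 5 (303). Markers of fast fibres, fibroblasts, adipocytes, Schwann cells, satellite cells, erythroid cells and tendon overlapped in their sums between the groups. Among all the markers only Lep, of the adipocyte list, was at 0 in some libraries. Whether the mix of cells has a part in the lower Atg16l2 or in the values of any other member was not tested.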

How the data were processed

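RNA from white quadriceps of 8 fasted mice had been sequenced, 4 per group. The authors deposited 1 table of log2 values, log2(normalized count + 1), for 54091 genes. Per the submitters' processing notes, the tools were cutadapt, FastQC, STAR, HTSeq and DESeq2 with build GRCm38; the sources used here give no version, annotation release, strand setting or filter. Dividing back showed whole reads within 0.1 read in 100% of values up to 200 reads, which gave each library's size factor and its 28659633 to 40977866 reads. Genes with a mean of at least 10 normalized counts (13141) were tested with limma 3.58.1 (trend, R 4.3.3) at an adjusted p of 0.05, since the unit is log2 and not counts. Scripts were tested on simulated data. Members and lists were chosen with earlier results of these data known. Values in every library are given for members with an unadjusted p under 0.05, the 2 smallest p and the highest mean of each role, and all Atg8 family and mitophagy genes, and for other pathway genes past the unadjusted threshold; Atg16l1 was added after its values were seen. Alternatives were pseudocounts, filters, scalings, voom, robust variance, a mouse-number covariate and libraries left out. The replicate numbers are not shared between groups.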

Additional observations from a re-analysis of the deposited data

Results flagged for a closer look

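In 84 groups of 4 mice (42 genes in 2 genotypes), the highest or the lowest mouse lay apart from the other 3 by more than Dixon's limit in 6 groups; chance flags about 1 group in 20. Knockout 5 was apart for Atg101, with the lowest knockout value of 319 normalized counts, and for Atg9a, with the highest of 2634. Knockout 7 had the lowest knockout value of Tax1bp1, at 5147. Among the floxed controls, replicate 3 was apart with the highest Atg101 value, 420.2, and the lowest Ambra1 value, 785, and replicate 2 with the lowest Atg14 value, 501.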

How the results depend on the processing

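Over the 18 alternatives run, 0 members passed the adjusted threshold (limma), and the median difference of the members stayed below 0. The number past the unadjusted threshold was 3 (3 lower) with no filter on low values, 7 (7 lower) without floxed control 4 and knockout 5, and 1 to 12 with 1 library left out (1 to 10 lower, 0 to 2 higher). The shares of all tested genes in those fits were 5.32%, 11.5% and 2.81% to 16.8%. Without the filter 1 gene of the whole table was called, Acot2 (-2.30). Of 432 values of the 24 named members, 34 changed sign, each for a member whose main difference was at most 0.074 in size; the cause was not tested. With libraries scaled to the same total these were Becn1 0.0013, Bnip3 0.034, Bnip3l 0.020, Fundc1 0.041, Gabarap 0.0061, Gabarapl1 0.030, Map1lc3a 0.034 and Park2 0.021, and without floxed control 4 and knockout 5, Bnip3 0.0057, Fundc1 0.021 and Map1lc3a 0.011. With 1 library left out the differences ran from -0.019 to 0.15 (Atg4d), -0.050 to 0.058 (Bnip3), -0.067 to 0.046 (Bnip3l), -0.053 to 0.042 (Fundc1), -0.090 to 0.017 (Gabarap), -0.086 to 0.036 (Gabarapl1), -0.022 to 0.086 (Gabarapl2), -0.074 to 0.069 (Map1lc3a), -0.13 to 0.11 (Park2) and -0.14 to 0.012 (Rb1cc1). With the median transcript as length, normalized counts per kb were 46683 for Bnip3, 27831 for Sqstm1, 12849.9 for Gabarapl1, 9790.0 for Pink1 and 4745 for Map1lc3a. A count-model fit was not run, and voom was the only fit that started from the recovered reads. No paired analysis was possible because the groups share no replicate number. Depth limits Atg4c, Atg16l2 and Atg10 most, with means of 117, 144 and 148 reads.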
